A study of Mus musculus with 6 samples.

Results

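The cells described here are the hindbrain class of day 6 neural tube organoids, that is, all cells to which the authors' deposited cell table gives the class name Hindbrain. The class holds 1245 of the 4301 cells in the day 6 table, and the whole series holds 16282 cells. Neural tube organoids are closed epithelia of neural cells that form when mouse embryonic stem cells (mESCs) are cultured in Matrigel, and single-cell RNA was measured with the 10x Genomics kit for 3′ ends. Every library was grown from the Sox1::eGFP;Bra::mCherry mESCs, which carry fluorescent reporters of Sox1 and of Bra (Brachyury, the gene T), and the labels name no other allele. Every day 6 library received bFGF and activin-A in N2B27 medium until day 3 and N2B27 alone until day 6, and each library is a pool of organoids. The day 6 table holds 1 library of organoids that had not elongated and 1 library of organoids that had (replicate 1, batch 1), which is called elongated below. A second elongated day 6 library (replicate 2, batch 2) lies in another table, in which the nearest class is a joint mid/hindbrain class of 2173 cells. Its values are set beside the others as replicate 2 and enter no fold change and no count, because the class was drawn differently.

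The hindbrain is the part of the neural tube that forms the medulla, pons and cerebellum. It is divided along its length into rhombomeres, segments that each express their own combination of transcription factors and of Hox genes, with low-numbered Hox paralogues reaching farthest forward and high-numbered ones restricted to the spinal cord. In the mouse embryo Egr2 (Krox20) marks the third and the fifth rhombomere, and Hoxb1 marks the fourth. Retinoic acid and fibroblast growth factors pattern these segments, and Eph receptors and ephrins keep the cells of neighbouring segments apart. Egr2 also belongs to the immediate early genes, which many cells switch on when they are stimulated or dissociated.

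Hoxb1 and Egr2 are the markers that separate segments, so the 250 bases before their start sites are shown (RefSeq, GRCm38.p6, plus strand). The Hoxb1 window is chr11:96365508-96365757, and capitals mark its match to TGATNNAT, a motif of Hox proteins with their Pbx partners, 162 to 155 bases before the start. The Egr2 window is chr10:67537619-67537868, the third of 5 listed starts, and capitals mark a CArG box, the motif of serum response factor, 72 to 63 bases before the start.
Hoxb1: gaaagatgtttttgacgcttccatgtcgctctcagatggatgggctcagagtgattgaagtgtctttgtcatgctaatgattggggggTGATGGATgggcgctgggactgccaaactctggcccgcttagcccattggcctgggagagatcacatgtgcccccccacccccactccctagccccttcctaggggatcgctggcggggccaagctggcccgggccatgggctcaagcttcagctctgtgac
Egr2: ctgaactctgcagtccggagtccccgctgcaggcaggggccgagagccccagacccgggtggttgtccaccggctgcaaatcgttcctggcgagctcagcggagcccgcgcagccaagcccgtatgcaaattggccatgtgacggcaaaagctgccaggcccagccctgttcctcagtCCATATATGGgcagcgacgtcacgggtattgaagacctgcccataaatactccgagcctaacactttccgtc
On either strand, TGATNNAT occurred in 7.68% of 32851 such windows and a CArG box in 1.47%. Of the 5 Egr2 windows, 4 held a CArG box. These matches describe the letters only, and binding was not measured.

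The class took 505 of 2225 non-elongated cells, a share of 22.7% (exact Clopper-Pearson 95% interval 20.97 to 24.5%), and 740 of 2076 elongated cells, a share of 35.6% (33.6 to 37.7%). With 1 library in each group this difference has no replicate check, and all intervals below cover counting error only. Depth was alike: hindbrain cells held a median of 33327 unique molecular identifiers (UMIs, one per captured transcript) in the non-elongated library and 33714 in the elongated one. The median number of detected genes was 5332 and 5437.5, and the median mitochondrial share 4.95% and 5.25%. No cell barcode was shared by the hindbrain cells of the 2 libraries. Expression is given in CPM, the UMIs of a gene summed over the hindbrain cells of a library, per 1000000 UMIs of that sum. Pairs of values stand in the order non-elongated, elongated. No p-value is given, since cells of 1 library are not replicates, and a gene is counted as apart when log2 of the ratio of CPM + 1 reaches 2-fold with at least 20 CPM on the higher side.

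The 4 markers given for the class were compared with the other 6 day 6 classes, which the authors drew from the same cells, so these levels are descriptions. Egr2, on chromosome 10 (67535475 to 67542188, mm10), stood at 32.9 and 53.6 CPM and was highest in the hindbrain class in both libraries. The remaining day 6 cells held 14.9 and 16.8 CPM of it. Sox2, a factor of neural progenitors (chromosome 3, 34650405 to 34652461), stood at 116.5 and 168.3 CPM, at rank 4 of the 7 classes in the non-elongated library and highest in the elongated one. The Sox2 level of the elongated spinal cord class, 167.8 CPM, lay inside the hindbrain's counting interval of 163.4 to 173.3 CPM, so these neighbours were not separated. Hes3, a repressor of neuronal differentiation (chromosome 4, 152285972 to 152291662), reached 89.4 and 59.5 CPM, below the caudal epiblast class with 138.6 and 174.5 CPM. Hoxb1 (chromosome 11, 96365752 to 96368256) reached 53.5 and 37.0 CPM, below caudal epiblast with 70.9 and 82.4 CPM and spinal cord with 71.8 and 46.5 CPM. It was nearly absent from midbrain, with 1.75 and 0.316 CPM. Of the 4 markers, Egr2 was thus the one whose summed level in CPM was highest in this class in both libraries, although the share of cells with an Egr2 UMI was higher in anterior epiblast in the non-elongated library. Sox2, Hes3 and Hoxb1 were present at levels that at least 1 other class matched or passed.

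**Figure D1:**
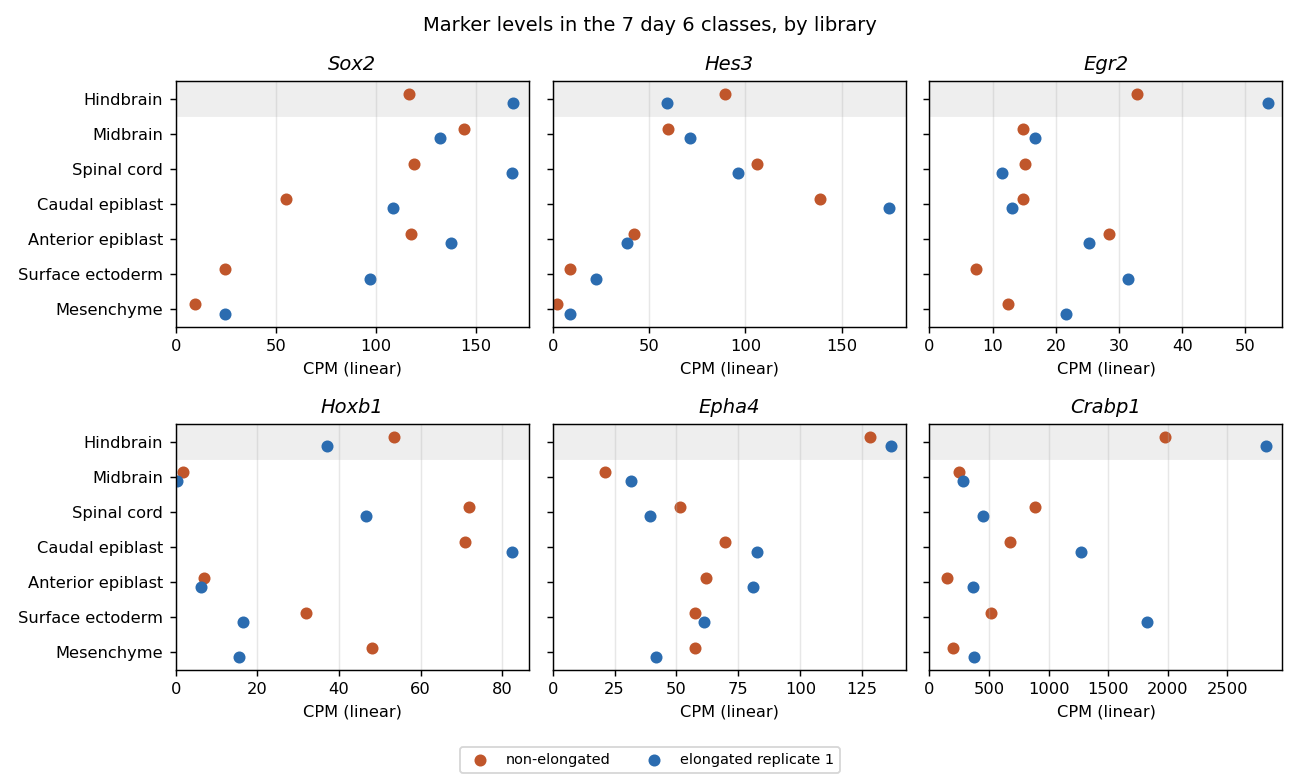
CPM (linear axis) of Sox2, Hes3, Egr2, Hoxb1, Epha4 and Crabp1 in the 7 day 6 classes, 1 point for each library, with the hindbrain class shaded. Egr2, Epha4 and Crabp1 are highest in the hindbrain row in both libraries, while Hes3 and Hoxb1 are higher in caudal epiblast.

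The summed level of segment genes was highest in this class in both libraries. The 18 listed genes of rhombomeres and their boundaries summed to 723.3 and 937.2 CPM, against 469.9 and 607.3 CPM in spinal cord, 481.2 and 559.2 CPM in anterior epiblast and 315.6 and 391.4 CPM in midbrain. Over all genes, 0.157% of 5092 were 2-fold higher in the hindbrain class than in the remaining day 6 cells in both libraries, and 0.255% were 2-fold lower. Of the 10 rhombomere genes that reached 20 CPM on the higher side in both libraries, 3 were 2-fold higher (Egr2, Epha4 and Irx2) and 0 lower. The list was chosen with earlier results of these data known, and the classes were drawn from these genes too, so the counts are read only as a description.

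Among segment genes, Epha4, an Eph receptor that keeps segments apart (chromosome 1, 77367185 to 77515088), stood at 128.3 CPM (95% Poisson interval 123.0 to 133.7) and 136.7 CPM (132.3 to 141.2), and in replicate 2 at 158.9 CPM. The remaining day 6 cells held 62.6 and 61.8 CPM and midbrain 21.04 and 31.6 CPM. Its ligand Efnb2 was at 34.6 and 42.4 CPM, second to anterior epiblast in both libraries. Irx2, an Iroquois factor of the anterior hindbrain (chromosome 13, 72628820 to 72634198), was highest in the hindbrain class in both libraries, with 64.5 and 116.2 CPM against 22.5 and 37.4 CPM. Sfrp1, a secreted Wnt inhibitor, was highest there too, with 109.9 and 152.3 CPM. Zfp503 and its paralogue Zfp703, zinc finger repressors, stood at 57.5 and 85.5 CPM and at 48.0 and 59.3 CPM. Spinal cord held more Zfp503 in both libraries, 72.7 and 113.8 CPM. Zfp703 was highest in the hindbrain class in the elongated library. In the non-elongated one it was second to surface ectoderm, which held 49.5 CPM.

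Among the other segment genes, Irx3 was highest in the hindbrain class in the non-elongated library, at 95.8 CPM. In the elongated library it was second to spinal cord, which held 177.3 CPM. The genes that follow were low in the class or passed by another class. Cyp26b1, which breaks down retinoic acid, was low at 1.28 and 4.74 CPM but lower still in the remaining cells, at 0.334 and 0.555 CPM. Its paralogue Cyp26c1 had 0 UMIs in the non-elongated hindbrain class, which allows up to 0.214 CPM, and 0.113 CPM in the elongated one. Gbx2, of the anterior hindbrain, was at 30.3 and 20.3 CPM and was higher in caudal epiblast at 40.7 and 58.0 CPM.

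Beyond the listed segment genes, the largest ratios over the remaining day 6 cells belonged to Crabp1, the cellular retinoic acid-binding protein (chromosome 9, 54764748 to 54773110). It stood at 1977 and 2827 CPM against 583.2 and 822.8 CPM, and at 3387 CPM in replicate 2. Nuak1, a kinase, stood at 32.1 and 36.2 CPM against 10.5 and 12.9 CPM. Fabp7, the brain fatty acid-binding protein of radial glia, stood at 38.1 and 64.8 CPM against 13.9 and 22.01 CPM. The homeobox gene Prrx2 stood at 58.8 and 75.5 CPM against 22.5 and 23.6 CPM. The imprinted gene Nnat stood at 216.1 and 454.0 CPM against 106.7 and 174.6 CPM. Sox1, an early neural factor and one of the genes tagged in these cells, stood at 32.5 and 60.8 CPM against 10.3 and 30.4 CPM, Pkdcc at 62.8 and 72.8 CPM against 25.6 and 38.8 CPM, and the growth factor Ptn at 626.9 and 1365 CPM against 302.6 and 737.4 CPM. Sox1, Pkdcc, Ptn and Sfrp1 stayed just under 2-fold in at least 1 of the libraries. Like Egr2, the dissociation-sensitive gene Fos was higher in the hindbrain class, with 540.0 and 442.1 CPM against 303.0 and 282.5 CPM. Between the libraries, Fos was lower in the elongated hindbrain class, whereas Egr2 was higher there, with 32.9 and 53.6 CPM. The part of Fos in the Egr2 level was not tested.

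Retinoic acid genes summed to 3070 and 4043 CPM in the class, of which Crabp1 gave 1977 and 2827 CPM. Of the 4 members at 20 CPM, 1 was 2-fold higher than in the remaining cells. The enzyme that makes retinoic acid, Aldh1a2, was low at 3.83 and 4.06 CPM, against 20.9 and 26.6 CPM in spinal cord and 83.5 and 53.9 CPM in mesenchyme. The receptor gene Rara stood at 28.6 and 20.9 CPM and Rarb at 1.45 and 4.47 CPM, against 3.82 and 24.3 CPM of Rarb in spinal cord.

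The Hox genes placed the class between midbrain and spinal cord. Hox genes of paralogue groups 1 and 2 together held 216.9 and 190.9 CPM in the hindbrain class, 3.86 and 2.21 CPM in midbrain, and 276.6 and 228.8 CPM in spinal cord. Groups 3 to 5 held 24.2 and 20.2 CPM against 207.7 and 250.9 CPM in spinal cord. Groups 6 to 9 held 27.0 and 27.0 CPM against 950.2 and 945.5 CPM. The 3' UMI counts do not scale with transcript length, so sums over genes are set side by side here. Within the hindbrain class the step lay between group 2, with 134.1 and 140.1 CPM, and group 3, with 12.1 and 10.1 CPM. Replicate 2 held 145.8 and 11.3 CPM of these groups. The step was not particular to the hindbrain class. Caudal epiblast stepped down there too, from 146.9 and 173.2 CPM in group 2 to 21.1 and 33.4 CPM in group 3. So, at lower levels, did anterior epiblast and surface ectoderm. In groups 6 to 9 caudal epiblast held 149.6 and 265.6 CPM.

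**Figure D2:**
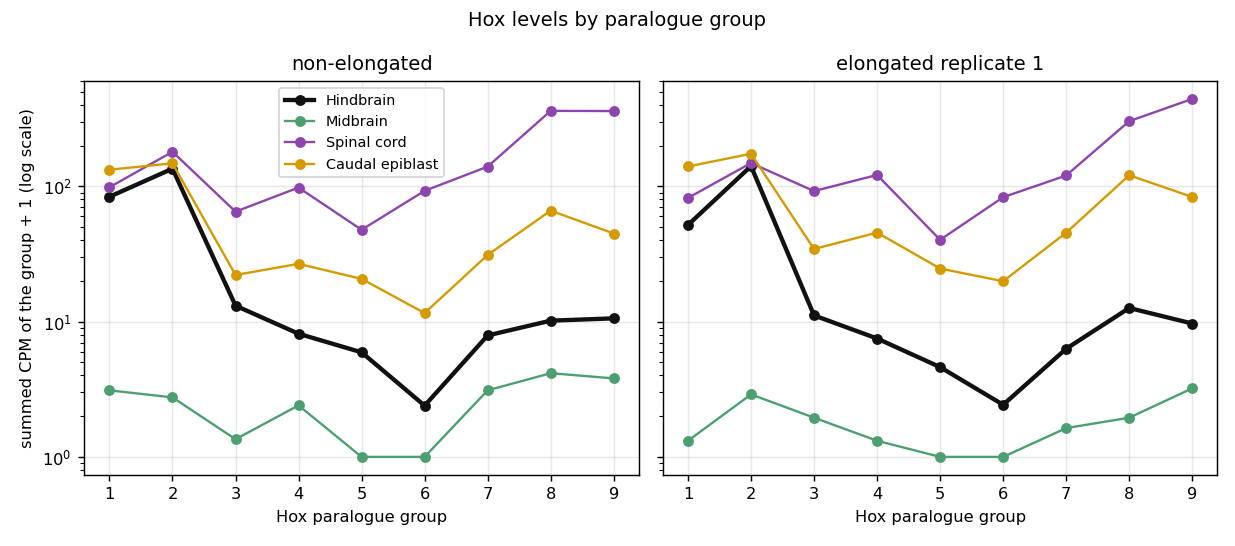
Summed CPM + 1 (log axis) of Hox genes in paralogue groups 1 to 9 for the hindbrain, midbrain, spinal cord and caudal epiblast classes, 1 panel for each library. The hindbrain line lies near spinal cord and caudal epiblast at groups 1 and 2 and drops at group 3, from 134.1 to 12.1 CPM and from 140.1 to 10.1 CPM. The caudal epiblast line drops at group 3 as well, from 146.9 to 21.1 CPM and from 173.2 to 33.4 CPM. The midbrain line is low throughout.

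Single Hox genes gave the same picture. Hoxb2 (chromosome 11, 96350525 to 96354012) stood at 97.0 and 98.9 CPM, and Hoxa2 (chromosome 6, 52162417 to 52164831) at 37.1 and 41.2 CPM. In midbrain these genes were at 1.40 and 0.948 CPM and at 0.351 and 0.948 CPM. Hoxa3, the most abundant member of group 3, was at 10.1 and 6.47 CPM, Hoxb4 at 4.002 and 3.87 CPM against 55.5 and 75.4 CPM in spinal cord, and Hoxa5 at 4.35 and 2.26 CPM. Of the posterior genes, Hoxb8 stood at 8.12 and 11.2 CPM against 243.1 and 200.2 CPM in spinal cord, and Hoxb9 at 9.34 and 8.16 CPM against 300.8 and 380.0 CPM. Hoxa7 was at 1.57 and 0.677 CPM, Hoxc6 at 1.04 and 0.489 CPM, Hoxc8 at 1.04 and 0.451 CPM and Hoxc9 at 0.174 and 0.263 CPM. Hoxd4, Hoxa6 and Hoxd8 had no UMI in the hindbrain cells of either library, which allows up to 0.214 and 0.139 CPM. Hox genes overlap with antisense transcripts such as Hoxaas3, Hoxb3os and Hoxb5os. The labels do not state whether counting used strand, so levels of such pairs are uncertain.

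Against midbrain, 0.627% of 5265 genes were 2-fold higher in the hindbrain class in both libraries and 0.494% were 2-fold lower. All 3 of the Hox genes of groups 1 and 2 that could be counted were higher, namely Hoxb1, Hoxb2 and Hoxa2. So were 5 of 11 rhombomere genes, with none lower. Meis2, a TALE-class cofactor of Hox proteins, stood at 212.4 and 240.1 CPM against 35.1 and 52.5 CPM. The long noncoding RNA Hotairm1 of the Hoxa cluster stood at 77.7 and 36.1 CPM against 2.81 and 1.26 CPM, and the uridine phosphorylase gene Upp1 at 95.3 and 44.4 CPM against 6.31 and 4.11 CPM. Hoxb3os was at 36.7 and 43.2 CPM against 1.40 CPM in the non-elongated and 0 UMIs in the elongated midbrain class. Lower in hindbrain were 5 of the 6 countable midbrain and isthmus genes. En1 stood at 1.45 and 2.03 CPM against 214.6 and 171.0 CPM, Otx2 at 0.290 and 0.714 CPM against 71.2 and 47.4 CPM, Pax2 at 6.50 and 6.92 CPM against 66.6 and 58.5 CPM, and Pax5 at 2.84 and 3.53 CPM against 29.8 and 31.0 CPM. The defining factors of the midbrain were therefore near 0 in the class. In replicate 2, the mid/hindbrain class held 2.73 CPM of En1 and 0.728 CPM of Otx2. Outside that list, Lmo1, Nkx6-1, Pcsk1n, Chst2, Ablim1 and Fbln2 were also among the 10 genes lowest against midbrain, with Lmo1, a LIM-only factor, at 0.754 and 1.80 CPM against 37.2 and 35.7 CPM.

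Against spinal cord, 0.503% of 5166 genes were 2-fold higher and 0.736% were 2-fold lower in both libraries. All 4 countable Hox genes of groups 3 to 5 and all 8 of groups 6 to 9 were lower, and 4 of 12 rhombomere genes were higher. Fst, the activin antagonist follistatin, had the largest ratio, with 95% intervals of 124.7 to 135.5 CPM and 118.8 to 127.3 CPM against 18.7 and 16.9 CPM. Prrx2 stood at 9.46 and 3.29 CPM in spinal cord and Fabp7 at 9.64 and 12.6 CPM, below their hindbrain levels given above. The metallothionein gene Mt1 stood at 977.9 and 560.5 CPM against 299.3 and 91.0 CPM, and the pluripotency factor Pou5f1 at 128.5 and 22.1 CPM against 41.6 and 5.12 CPM. Klf2, Irx2, Mt2, Slc7a3 and Ddit4 completed the 10 genes highest over spinal cord. Of the 10 genes lowest against spinal cord, the only one outside the Hox genes and their antisense transcripts was Cdx4, a caudal homeobox factor, at 0.464 and 0.226 CPM against 22.7 and 20.8 CPM.

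Against caudal epiblast, 0.331% of 5142 genes were 2-fold higher and 0.447% were 2-fold lower in both libraries. All 3 countable genes of caudal progenitors were lower in the hindbrain class. Cdx2 stood at 26.1 and 3.42 CPM against 158.7 and 134.6 CPM, and Nkx1-2 at 10.8 and 3.04 CPM against 59.6 and 54.6 CPM. Of 10 countable rhombomere genes, 2 were higher and 0 lower. Groups 1 and 2 of the Hox genes reached 278.6 and 312.4 CPM in caudal epiblast, above the hindbrain class.

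Markers of mesoderm, endoderm and forebrain were low in the class, and of 10 neuron genes only Stmn2 reached 20 CPM. Mesoderm genes summed to 59.8 and 55.2 CPM, against 544.7 and 542.1 CPM in the mesenchyme class, and most of that sum was Twist1 at 38.8 and 30.5 CPM. Endoderm genes summed to 7.37 and 4.10 CPM and forebrain genes to 5.51 and 5.60 CPM. Neuron genes summed to 156.2 and 253.9 CPM, the highest of the 7 classes in both libraries, and nearly all of that sum was Stmn2 and Tubb3. Stmn2, a microtubule regulator of neurons, gave 133.4 and 226.8 CPM, and Tubb3 15.3 and 14.2 CPM.

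The question of the day 6 design is how elongated organoids differ from those that did not elongate. Within the hindbrain class, 0.785% of 5351 genes (42) were 2-fold higher in the non-elongated library and 0.467% (25) were 2-fold higher in the elongated one, and the median log2 ratio over all genes at 20 CPM was -0.0024. The caudal epiblast class had 35 and 15 such genes of 5273, midbrain 13 and 7 of 5495, and spinal cord 52 and 46 of 5455. Anterior epiblast had 18 and 2 of 5386, mesenchyme 151 and 166 of 5665, and surface ectoderm 264 and 193 of 5647. These counts rest on unlike UMI sums, such as 2851986 and 3163388 in midbrain against 17239541 and 26605595 in hindbrain. They are therefore not ranked. The non-elongated hindbrain cells held more RNA of epithelial and pluripotency genes, and the elongated ones more of neural patterning genes. Both statements compare 1 library with 1 library, and the libraries differ in the organoids pooled as well as in shape.

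Epithelial genes were higher in the non-elongated hindbrain class. All 6 of the 6 surface ectoderm and epithelium genes at 20 CPM were 2-fold higher in that library, with a median log2 ratio of 2.13. Epcam, a cell adhesion molecule of epithelia (chromosome 17, 87635979 to 87651129), stood at 146.0 CPM (140.4 to 151.8) against 35.1 CPM (32.9 to 37.5), and at 47.8 CPM in replicate 2. Cdh1, which encodes E-cadherin, stood at 22.2 against 3.12 CPM, and at 7.61 CPM in replicate 2. Cldn7, a tight junction protein, stood at 23.7 against 2.41 CPM, and Cldn3 at 26.0 against 6.09 CPM. Tfap2c, a factor of surface ectoderm and germ cells, stood at 44.1 against 8.53 CPM. Krt8 stood at 192.8 against 66.6 CPM and Krt18 at 127.7 against 60.5 CPM, and replicate 2 held 21.5 and 29.9 CPM of these keratins. The 14 genes of the list summed to 606.4 and 185.4 CPM in the hindbrain class and to 5301 and 1188 CPM in the surface ectoderm class. Of its defining markers, Trp63 had no UMI in the hindbrain cells and only 1.66 and 0 CPM in the surface ectoderm class itself, and Sfn stood at 8.53 and 0.940 CPM against 392.8 and 63.9 CPM. The list was also higher in the non-elongated library in the spinal cord class, with 344.1 against 47.7 CPM, in caudal epiblast, with 971.0 against 388.7 CPM, and in anterior epiblast and midbrain, with 650.3 against 423.8 and 258.1 against 197.3 CPM. In mesenchyme it was lower there, with 350.2 against 899.4 CPM. The difference was therefore shared with 5 of the other 6 classes, and the part of surface ectoderm RNA in the hindbrain values was not tested. In the non-elongated surface ectoderm class Krt8 stood at 2105 CPM and Epcam at 422.1 CPM.

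Of the pluripotency and caudal lists, 1 gene each was 2-fold higher in the same library. Pou5f1, which encodes Oct4 (chromosome 17, 35506018 to 35510772), stood at 128.5 CPM (123.2 to 134.0) against 22.1 CPM (20.4 to 24.0), and at 48.8 CPM in replicate 2. It was the only one of 3 countable epiblast genes past 2-fold, and the de novo methyltransferase gene Dnmt3b stood at 171.5 against 106.1 CPM. Cdx2, a caudal homeobox factor and the only countable gene of its list, stood at 26.1 against 3.42 CPM, and at 4.17 CPM in replicate 2. Hspb1, a small heat shock protein, had the largest log2 ratio among genes at 20 CPM, 2.98. It stood at 42.3 against 4.51 CPM, with 8.73 CPM in replicate 2. None of 9 countable immediate early and heat shock genes of the stress list was 2-fold apart, with a median log2 ratio of 0.29. Outside that list, the immediate early gene Nr4a1 was 2-fold higher in the non-elongated library, at 111.3 against 51.7 CPM. So was Klf2, at 158.3 against 55.9 CPM. Pim2, a kinase, stood at 89.5 against 16.1 CPM, Chchd10, a mitochondrial protein, at 83.1 against 22.2 CPM, Smagp at 20.9 against 4.44 CPM and Cabp7 at 26.2 against 6.16 CPM. In replicate 2 Pim2 and Chchd10 stood at 67.2 and 63.3 CPM, nearer to the non-elongated than to the elongated library. In the spinal cord class the same ratios were larger, with log2 values of 2.38 for Epcam, 3.22 for Krt8, 2.80 for Pou5f1 and 3.65 for Hspb1, against 2.02, 1.52, 2.49 and 2.98 in hindbrain.

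Signalling genes were split. Among 8 countable genes of fibroblast growth factor signalling, 3 were 2-fold higher in the non-elongated library: Etv4 at 21.4 against 7.33 CPM, Etv5 at 27.8 against 12.1 CPM and Il17rd at 26.9 against 10.7 CPM, all feedback targets or effectors. The ligand Fgf3, expressed in the caudal hindbrain, went the other way at 8.30 against 22.6 CPM, with 27.4 CPM in replicate 2. Of 3 countable Wnt genes, 2 stood 2-fold above the elongated level: Wnt8a, a ligand of the early hindbrain, at 68.0 against 21.4 CPM, and Lef1, a nuclear effector, at 35.4 against 16.5 CPM. Replicate 2 held 66.0 CPM of Wnt8a, close to the non-elongated level.

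Higher in the elongated hindbrain class were transcription factors of neural patterning. The COUP-TF receptor gene Nr2f1 (chromosome 13, 78188973 to 78199757) stood at 62.5 CPM (59.6 to 65.6) against 17.1 CPM (15.2 to 19.2), and its paralogue Nr2f2 (chromosome 7, 70351944 to 70366735) at 55.7 against 13.6 CPM. Replicate 2 held 23.0 and 23.2 CPM, nearer to the non-elongated level. The log2 ratios of both lay farther from 0 in the spinal cord class, with -3.69 and -2.54, than in hindbrain, with -1.81 and -1.95. Meis1, a TALE cofactor, stood at 30.5 against 12.7 CPM. Pax6, of neural progenitors (chromosome 2, 105668900 to 105697364), stood at 29.4 against 7.72 CPM, with 23.8 CPM in replicate 2, and its log2 ratio of -1.80 compares with -3.77 in spinal cord. Hes5, a Notch effector (chromosome 4, 154960923 to 154962371), stood at 34.2 against 8.53 CPM, with 32.7 CPM in replicate 2. Together with Rfx4 at 22.5 against 9.80 CPM, these made 3 of 10 neural progenitor genes 2-fold higher in the elongated library and 0 in the other, with a list median log2 of -0.67. Of 14 countable rhombomere genes, 3 were 2-fold higher in the elongated library, Epha7 and Fgf3 among them. In the non-elongated library 1 was 2-fold higher, namely Wnt8a. Epha7, an Eph receptor, stood at 22.7 against 7.83 CPM with 16.4 CPM in replicate 2. Zic1, of the dorsal neural tube, stood at 21.95 against 10.4 CPM, while Olig3, of dorsal progenitors, was lower at 12.2 against 30.2 CPM. Replicate 2 went against the elongated library for both, with 9.94 CPM of Zic1 and 38.8 CPM of Olig3.

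Vgll3, a cofactor of TEAD factors (chromosome 16, 65815257 to 65866368), had the largest ratio in this direction, 44.1 CPM (41.6 to 46.7) against 4.58 CPM (3.63 to 5.71). Replicate 2 held 3.30 CPM, at the non-elongated level. In the elongated library a Vgll3 UMI was found in 15.1% of hindbrain cells and 15.7% of anterior epiblast cells but in 1.16% of midbrain cells, each thinned (drawn down at random) to 10000 UMIs, and in 21.1% of hindbrain cells without thinning. Ppp1r1b followed a similar course, with 27.4 against 5.98 CPM and 5.65 CPM in replicate 2. Fez1, a kinesin adaptor, stood at 20.7 against 5.45 CPM, the protease gene Plat at 24.5 against 6.73 CPM and Ildr2 at 25.0 against 7.25 CPM. Replicate 2 held 8.69, 9.66 and 14.8 CPM of these, between the libraries, with Fez1 and Plat nearer to the non-elongated level.

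**Figure D3:**
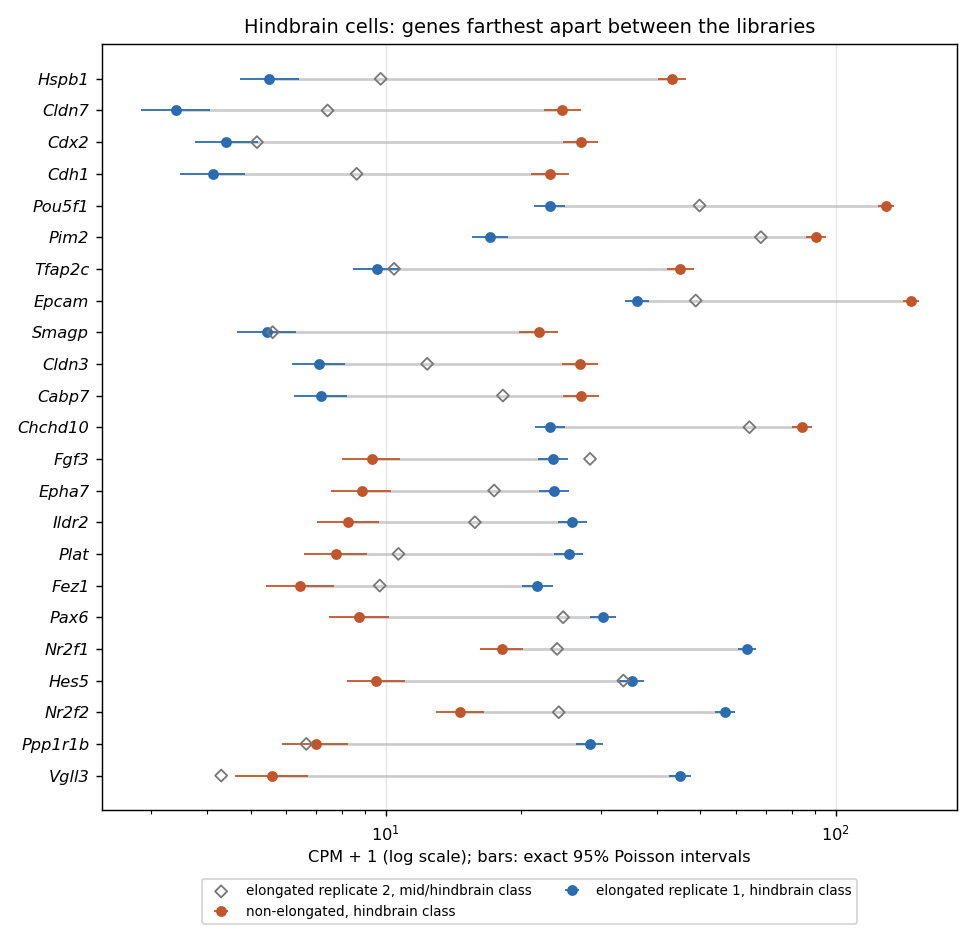
CPM + 1 (log axis) in hindbrain cells for the 12 genes farthest apart towards the non-elongated library and 11 of the 12 towards the elongated one, with exact 95% Poisson intervals, and the mid/hindbrain class of elongated replicate 2 as open diamonds. The diamonds lie at the elongated end for Cdx2, Tfap2c and Hes5, at the non-elongated end for Vgll3 and Ppp1r1b, above both for Fgf3, and between them for most of the other genes.

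Several programmes differed little between the libraries. None of 16 countable DNA replication genes and none of 16 genes of G2 phase and mitosis was 2-fold apart, with median log2 ratios of 0.02 and 0.05. The 11 glycolysis and hypoxia genes gave a median of 0.08, also with none 2-fold apart. Hoxb2 at 97.0 and 98.9 CPM, Epha4 at 128.3 and 136.7 CPM and Vim, an intermediate filament gene, at 93.7 and 93.1 CPM were nearly level.

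The Hox levels were also read as shares of cells with a UMI. After thinning to 10000 UMIs a cell, which left out no cell, any Hox UMI of groups 1 and 2 was found in 83.4% of non-elongated hindbrain cells (79.8 to 86.5%) and 72.8% of elongated ones (69.5 to 76.0%). In midbrain, which should lack these genes, 4 of 102 non-elongated cells (3.92%, with an interval of 1.08 to 9.74%) carried such a UMI, and 0 of 86 elongated cells did, which allows up to 4.199%. Without thinning the hindbrain shares were 96.2% and 89.9%, and the midbrain shares 8.82% and 8.14%. A Hox UMI of groups 6 to 9 was found in 9.31% and 11.2% of thinned hindbrain cells and in 24.4% and 23.5% of unthinned ones.

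Hoxb1 itself was found in 38.6% (34.4 to 43.0%) and 23.4% (20.4 to 26.6%) of thinned cells, and in 68.7% and 47.2% without thinning. An Egr2 UMI was found in 21.98% (18.4 to 25.8%) and 32.8% (29.5 to 36.4%) of thinned hindbrain cells and in 15.7% (9.24 to 24.2%) and 10.5% (4.90 to 18.9%) of midbrain cells. In the non-elongated library these Egr2 intervals overlap, so the hindbrain share did not stand clear of the midbrain share there. Anterior epiblast cells of that library had the higher Egr2 share, 29.2% (21.2 to 38.2%), although their summed level was lower, so no order is read from the Egr2 shares there. Without thinning the Egr2 shares were 49.9% and 55.3% in hindbrain and 28.4% and 33.7% in midbrain. Pou5f1 was found in 54.1% (49.6 to 58.5%) of non-elongated and 111 of 740 elongated ones (12.5 to 17.8%), against 20.6% and 17.4% of midbrain cells. Without thinning the shares were 75.5% and 37.3%, against 39.2% and 43.0%. The elongated share thus lay near the midbrain share, and above the 4.73% (3.06 to 6.96%) of elongated spinal cord cells. Nr2f2 was found in 10.9% (8.31 to 13.9%) and 36.4% (32.9 to 39.9%) of thinned cells and in 22.2% and 61.2% of unthinned ones. Midbrain gave 11.8% and 2.33% thinned and 14.7% and 11.6% unthinned, so the non-elongated Nr2f2 share lay at the midbrain level and the elongated one above it.

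Cells of the class differed among themselves. The genes with the highest Fano factor (variance over mean of thinned UMIs) in both libraries were led by Crabp1 with 12.0 and 13.9 and by the nuclear RNA Malat1 with 10.4 and 12.6, where the median over 4845 genes was 1.05 in either library. The mitochondrial gene mt-Atp6 followed with 6.44 and 7.69, then Nnat with 6.22 and 14.6, Tmsb4x with 5.67 and 6.61, Mt1 with 7.96 and 5.24, and Fos with 4.90 and 6.38. The remaining genes of the first 12 were Id1, Gm26917, mt-Co3, Meg3 and Mest. Stmn2 had 2.52 and 7.45, and the cell cycle inhibitor gene Cdkn1c 2.47 and 6.58. The Fano factor rises with a gene's mean, so its values are not compared between the libraries.

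To see which segment genes shared cells, hindbrain cells were divided by whether a thinned cell carried an Egr2 UMI. Cells without one include cells that express the gene below detection, and the split is a description. Intervals in this and the later splits cover counting error only and leave out variation among cells. Fano factors above 1, such as 2.68 and 3.34 for Jun, mean that cells varied more than counting error alone gives. Intervals apart or overlapping are therefore no test. In the elongated library the 243 Egr2-positive cells held 16.5 Hoxb1 UMIs per 100 cells (11.8 to 22.4) and the 497 others 41.5 (36.0 to 47.5). Hoxa2 went the other way with 65.0 against 31.99, as did Epha4 with 177.4 against 123.1, and Hoxb2 differed little with 89.3 against 103.0. Nab2, a corepressor that binds Egr proteins, stood at 47.7 (39.5 to 57.3) against 21.7 (17.8 to 26.2) UMIs per 100 cells. Nnat stood at 855.6 against 339.2 and Irx2 at 152.3 against 103.4. Egr2-positive elongated cells thus held less Hoxb1 and more Hoxa2, Epha4 and Nab2. When the cells were thinned to 5000 UMIs instead, the ratio of Hoxb1 in positive to negative cells moved from 0.397 to 0.607.

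The non-elongated library showed part of this, with intervals apart for Nab2 and Nnat and overlapping for Hoxb1, Hoxa2, Epha4 and Irx2. Its 111 Egr2-positive cells held 48.6 Hoxb1 UMIs per 100 cells (36.6 to 63.5) and the 394 others 58.1 (50.8 to 66.2), intervals that overlap. Nab2 stood at 35.1 against 16.5, and its ratio moved from 2.13 to 4.09 with thinning to 5000 UMIs. Epha4 stood at 145.0 (123.5 to 169.3) against 126.4 (115.5 to 138) and Nnat at 348.6 against 187.8. Hoxa2 stood at 46.85 (34.99 to 61.4) against 34.8 (29.2 to 41.1), so its intervals overlap as those of Epha4 do. Of 4 other immediate early genes, Jun and Ier2 were also higher in Egr2-positive cells. Jun stood at 359.5 against 257.4 UMIs per 100 cells in the non-elongated library and 441.6 against 329.4 in the elongated one, and Ier2 at 527.0 against 401.0 and 385.2 against 339.8, with intervals apart in both libraries. Egr1 stood at 276.6 (246.5 to 309.3) against 225.6 (211.0 to 241.0) and at 226.7 (208.2 to 246.5) against 195.6 (183.5 to 208.3). The Egr1 intervals touch in the elongated library. Fos stood at 574.8 against 532.0 and 461.7 against 429.4, with intervals that overlap in both libraries. The part of dissociation or stimulation in the Egr2 split was not tested. Both Egr2 and Hoxb1 were found in 36 cells of each library, 7.13% of the non-elongated and 4.86% of the elongated ones.

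Hoxb1-positive cells of the elongated library (173) held more Hoxb2 than the 567 others, 141.6 against 85.4 UMIs per 100 cells, and more Sfrp1, 209.2 against 146.6. They held less Stmn2, 131.8 against 286.1, and less Vgll3, 7.51 against 65.1. In the non-elongated library the 195 Hoxb1-positive cells held 112.3 Hoxb2 UMIs per 100 cells against 90.3 in the 310 others, and 135.4 against 133.2 of Stmn2.

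**Figure D4:**
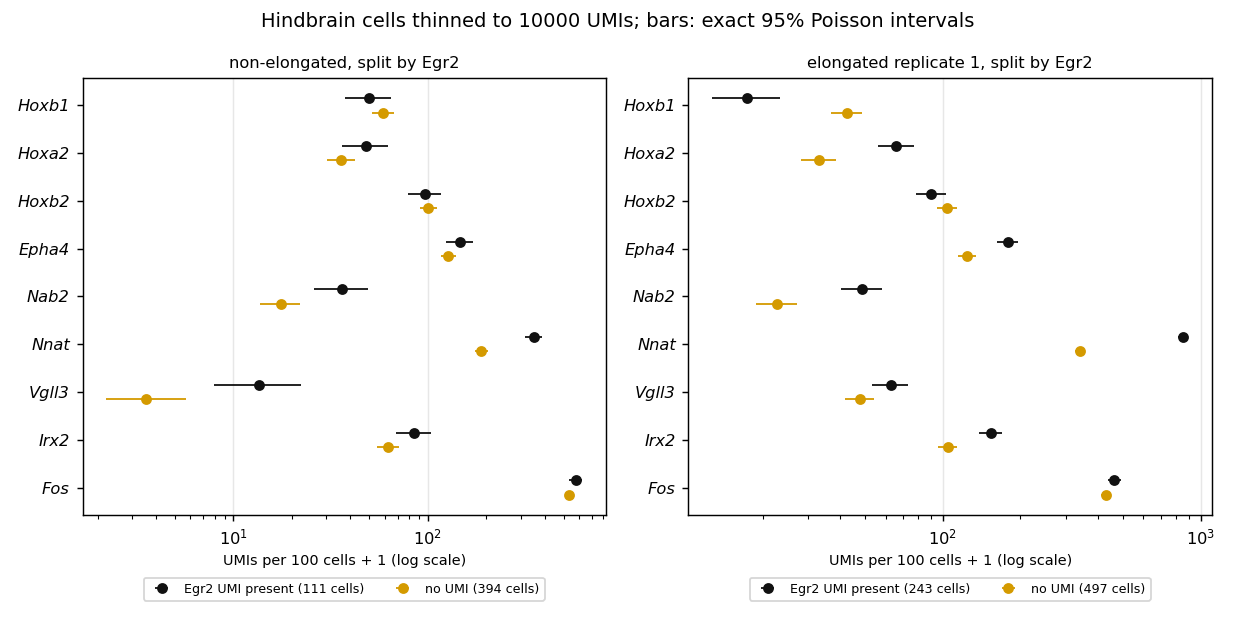
UMIs per 100 hindbrain cells + 1 (log axis, thinned to 10000 UMIs a cell) in cells with and without an Egr2 UMI, with exact 95% Poisson intervals, 1 panel for each library. In the elongated panel Hoxb1 lies lower and Hoxa2, Nab2 and Epha4 higher in Egr2-positive cells.

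The cells were last divided by a Pou5f1 UMI, present in 273 non-elongated and 111 elongated hindbrain cells. In the non-elongated library positive cells held more Epcam, 191.9 (175.9 to 209.1) against 83.6 (72.3 to 96.2) UMIs per 100 cells, more Dnmt3b, 200.7 against 112.9, and more Wnt8a, 86.4 against 44.0. They held less Nr2f1, 6.59 (3.91 to 10.4) against 31.9 (25.1 to 40.0), less Nr2f2, 3.30 against 29.3, less Sox2, 94.9 against 165.5, less Crabp1, 1544 against 2543, and less Irx2, 45.8 against 90.5. Hoxb1, with 55.7 against 56.5, Egr2, with 30.4 against 33.2, and Epha4, with 124.2 against 137.9, were nearly level. Krt8 was nearly level too, with 212.5 against 192.7. In the elongated library Epcam was again higher in positive cells, 82.0 against 26.7, and Nr2f1 lower, 19.8 against 69.2. Not all genes repeated: Irx2 was nearly level there, with 112.6 against 120.7. Krt8 was higher in positive cells there, with 92.8 (75.7 to 112.5) against 60.25 (54.3 to 66.6).

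Pou5f1-negative cells of the 2 libraries still differed. Epcam stood at 83.6 UMIs per 100 such cells in the non-elongated and 26.7 in the elongated library, Wnt8a at 44.0 and 17.0, and Nr2f1 at 31.9 and 69.2. In these cells the Nr2f1 gap was smaller than over all hindbrain cells, where the sums were 17.1 and 62.5 CPM, and so was the Epcam gap, where the sums were 146.0 and 35.1 CPM.

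**Figure D5:**
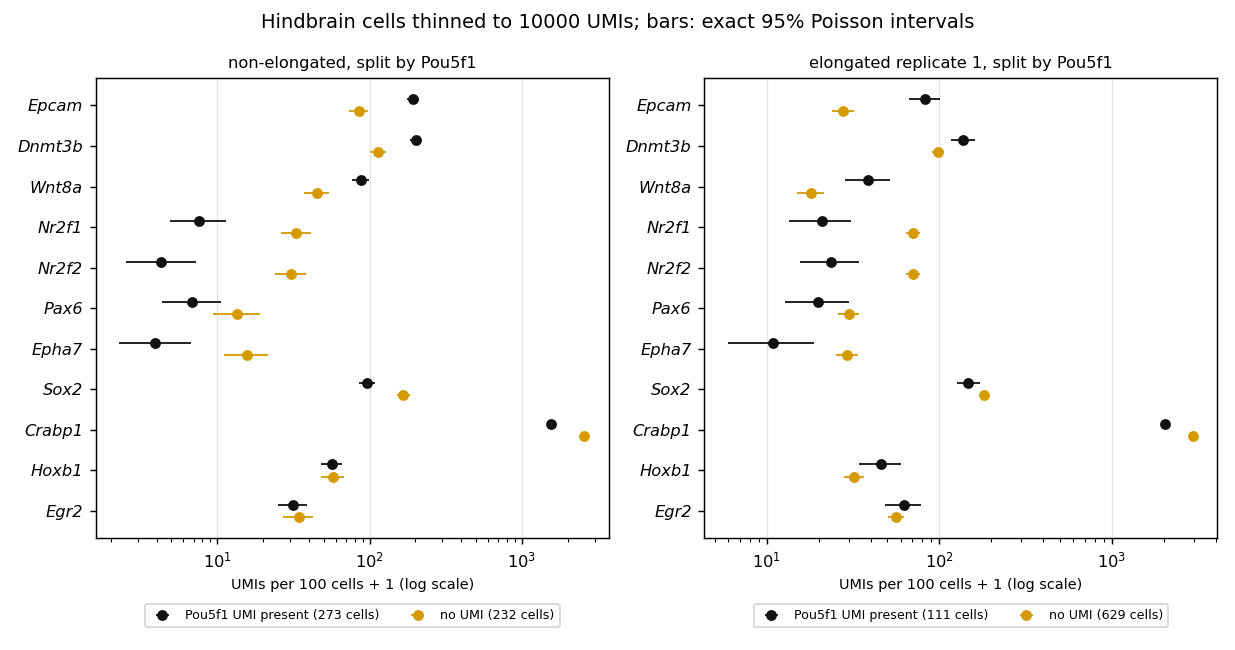
UMIs per 100 hindbrain cells + 1 (log axis, thinned to 10000 UMIs a cell) in cells with and without a Pou5f1 UMI, with exact 95% Poisson intervals, 1 panel for each library. Epcam, Dnmt3b and Wnt8a lie higher and Nr2f1, Nr2f2, Epha7 and Crabp1 lower in positive cells of both libraries.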

How the data were processed

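The authors deposited raw UMI counts of each gene in each cell, and a cell table with UMI and gene counts, the mitochondrial share in percent, and class and library names, which are names without a unit (other). Cell Ranger 3.1 and mm10 are named per the submitters' processing notes. How cells were filtered and named is not given in the sources used here. The day 6 table holds 18144 genes and 4301 cells with 3502 to 7498 genes each, and its library names NENT and SENT were read by their initials as non-elongated and elongated. UMI sums were checked against the cell table and matched in all 4301 cells. No doublet caller was run.

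Members and gene lists were chosen with earlier results of these data known. Hindbrain cells were taken by the class name. UMIs were summed by class and library and scaled to CPM, with 17239541 (non-elongated) and 26605595 (elongated) UMIs in the hindbrain sums. Ratios are log2 of CPM + 1 on both sides. A list is described by its members with at least 20 CPM on the higher side. Cells were thinned to 10000 UMIs for shares, splits and Fano factors (mean of at least 0.2). Named genes are the markers, Hox genes of groups 1 to 9, the rhombomere list, the 12 highest and 8 lowest against the remaining cells, the 10 each way against midbrain and spinal cord, the 12 each way between libraries, the 12 highest Fano factors and up to 4 genes of each list, and some of these are not reported here. In the splits, Vgll3, Nnat and Krt8 were chosen after values were seen, as were Cdkn1c and Tubb3 elsewhere, and list members are also named where few passed 2-fold. Zfp503 and Zfp703 are written Znf503 and Znf703 in the lists. Positions are from GENCODE M21 and promoters from RefSeq. Python 3.11.15, numpy 2.4.6, pandas 2.3.3, scipy 1.17.1 and, for alternative factors, edgeR 4.0.16 in R 4.3.3 were used, and the counting of 2-fold genes was tested on simulated data.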

Additional observations from a re-analysis of the deposited data

How the results depend on the processing

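No paired analysis was possible because each day 6 group has 1 library in the day 6 table, and for the same reason no library could be left out. The counts of genes 2-fold higher in the non-elongated (42) and elongated (25) hindbrain class became 100 and 64 with a minimum of 5 CPM and 148 and 92 with no minimum. Against the remaining day 6 cells, the 8 higher and 13 lower genes became 26 and 50 with a minimum of 5 CPM. With each other class weighted equally the lower genes became 24, and with a pseudocount of 5 CPM the higher genes became 5. Lowering the minimum admits more genes by construction, and the cause of the others was not tested. TMM and leaving out the 10% of cells with most UMIs kept each of these counts within 1.5 times. RLE and per-cell means, run only between the libraries, did so too. Without those cells 40 of the 42 and 25 of the 25 genes between libraries were shared. Of 336 single values between libraries and 115 against the remaining cells, 26 and 29 moved beyond a counting band. Of those that were 2-fold or more apart, 0 turned direction. The band was drawn from the hindbrain UMIs of the 2 libraries in both cases. It leaves out the counts of the other classes, so it is not the counting interval of the ratios to the remaining cells. Of 172 shares of hindbrain cells with a UMI, 152 moved with thinning to 5000 UMIs or none, and of 8 values of the Egr2 split 4 moved. A minimum of 10000 UMIs left out no cell, since each day 6 cell held at least 11258, so it could not test the class shares. Of the 12 genes of highest Fano factor, 11 were shared with thinning to 5000 UMIs. Depth limits the Hox genes above group 2, which rest on few UMIs a cell. The 5000 UMI thinning of the Egr2 split was chosen after seeing the data.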
